A study of Homo sapiens with 12 samples.

Results

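Intermediate filaments form a filament system of the cell beside actin and microtubules, and the genes described here code for the filament proteins vimentin, nestin, keratins and lamins. The members are 10 genes given by name (VIM, NES, KRT7, KRT8, KRT18, KRT19, KRT80, LMNA, LMNB1 and LMNB2), and 9 of them were found by symbol among the 8842 genes listed for these libraries. KRT8 was not analysed here. The choice rested on the knockdown itself: VIM was selected on being lower with siFASRL in both cell lines, NES on moving in opposite directions, and the keratins and lamins were taken to compare with them. Members' values with siFASRL against siNC are therefore a description without a test, and members other than VIM and NES were tested only between the lines under siNC.

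The study concerns FASRL, a long noncoding RNA of hepatocellular carcinoma, and sequenced RNA after its knockdown. HepG2 and LM3, both established human liver cancer cell lines, were transfected with an siRNA against FASRL (siFASRL) or with a control siRNA (siNC). Each of the 4 groups, HepG2 siFASRL, HepG2 siNC, LM3 siFASRL and LM3 siNC, had 3 replicates harvested 48 h after transfection, which makes 12 libraries. Which siRNA sequence went into these libraries is not given in the sources used here, and the methods speak of repeated cell line experiments without saying if these replicates were separate cultures, so p-values measure the spread between these samples. FASRL is not among the listed genes and its level was not analysed here.

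Intermediate filaments are built from rod-shaped proteins whose genes are used by cell type. Keratins are obligate pairs of a type I and a type II protein in epithelial cells, with keratins 8 and 18 as the pair of the hepatocyte and keratins 7 and 19 as marks of bile duct cells. Vimentin is the type III filament of mesenchymal cells and of many cultured carcinoma lines, nestin is a type VI protein of progenitor cells that assembles with vimentin, and A-type and B-type lamins form the meshwork under the inner nuclear membrane.

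The deposited values are RSEM normalized expression values per gene, scaled for transcript length, so levels can be set between genes, but whether they are FPKM or TPM is not stated. Over the listed genes they summed to between 316534 and 355094 in the 12 libraries, and sequencing depth is unknown. Across genes, replicates of a group correlated with Pearson's r between 0.9954 and 0.9989. The gene list itself is uneven: of 6367 genes with a mean of at least 5 in HepG2, 5 (0.079%) had a log2 ratio between -0.20 and -0.04, against 578 of 5937 (9.74%) in LM3. Shares of genes past a threshold hold for this list and not for the transcriptome.

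The lines differed in the markers of liver cells. In HepG2 all 13 listed hepatocyte markers (of 15 written down) reached a value of 1, and their summed value was 4821, 4772 and 4351 in siNC and 2589, 2614 and 2657 in siFASRL libraries. SERPINA1, the most abundant of them, had 1435, 1432 and 1310 in HepG2 siNC. In LM3, 10 of the 13 stayed under 1 in every library, and the summed value was 15.6, 20.1 and 18.1 in siNC and 8.06, 8.10 and 6.92 in siFASRL, most of it from HNF4A, which had 14.4, 14.4 and 14.2 in siNC. By its albumin, at 0.06, 0.62 and 0.40 in LM3 siNC against 851, 805 and 790 in HepG2 siNC, LM3 lacked the secretory markers of a hepatocyte. With siFASRL 12 of the 13 were lower in HepG2 at a limma adjusted p under 0.05, as were 44.3% of all 8144 genes tested, and their part in the results was not tested.

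Markers of other cell types summed to less than those of hepatocytes in HepG2, which was not so in LM3. The 6 listed cholangiocyte markers of 9 (KRT7 and KRT19 left out as members) summed to 536, 493 and 468 in HepG2 siNC and to 165, 163 and 169 in HepG2 siFASRL, with SPP1 as the most abundant there. In LM3 the same markers summed to 125, 120 and 119 in siNC and 78.8, 85.0 and 81.7 in siFASRL, with ANXA4 as the most abundant. The 6 listed fibroblast and stellate cell markers of 10, of which COL1A1 had the highest mean over the 12 libraries, summed to 102, 101 and 107 in HepG2 siNC and 44.7, 41.9 and 43.2 in HepG2 siFASRL, and to 15.5, 14.6 and 13.4 against 5.89, 7.11 and 6.59 in LM3. In LM3 RGS5 went against its list, from a mean of 0.29 to 1.26. These sums were lower with siFASRL, as VIM was, and their part in the VIM result was not tested. The 2 listed endothelial markers of 8, led by ENG, summed to between 27.7 and 36.0 in HepG2 and 43.7 and 50.2 in LM3, and the 4 listed leukocyte markers of 10 to between 99.3 and 130 in HepG2, where LYZ led, and 15.2 and 19.1 in LM3, where CD68 led and CD3D was at 0 in every library. The HepG2 sum hides members that moved apart, since with siFASRL the mean of LYZ went from 82.7 to 46.1, that of CD3D from 1.85 to 4.68 and that of CD79A from 0.67 to 7.27. Both are cell lines, so these sums describe genes expressed in the lines and do not show that other cell types were present. Fewer cells of a line with such RNA and less RNA per cell cannot be told apart in bulk samples.

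VIM (gene ID 7431, chr10:17228241-17237593 in RefSeq on GRCh38.p14, plus strand) was high under siNC in both lines and low with siFASRL in both. In HepG2 its value was 272, 294 and 286 in the siNC libraries and 57.8, 61.4 and 59.0 in the siFASRL libraries. In LM3 it was 352, 387 and 381 with siNC and 61.4, 69.9 and 72.1 with siFASRL. The groups did not overlap in either line, and the 6 siFASRL libraries lay in a narrow band from 57.8 to 72.1 although the lines started from different levels. The mean with siFASRL was 20.9% of the siNC mean in HepG2 (59.4 ± 1.799 against 283.9 ± 11.2, SD, n = 3) and 18.2% in LM3 (67.8 ± 5.70 against 374 ± 19.0). On the log2(value + 1) scale the difference was -2.24 (SE 0.06) in HepG2 and -2.45 (SE 0.07) in LM3. VIM-AS1, which GENCODE v29 places on the other strand over VIM, may share reads with it, since nothing read here tells if reads were assigned by strand.

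NES (gene ID 10763, chr1:156668763-156677407, minus strand) went in opposite directions, the pattern for which it was chosen. In HepG2 the siNC libraries had 3.19, 3.18 and 3.11 and the siFASRL libraries 8.71, 7.82 and 8.13. In LM3 the order was turned around, with 10.2, 9.75 and 8.92 in siNC and 2.38, 2.44 and 2.13 in siFASRL. The level of LM3 under siNC thus lay close to that of HepG2 with siFASRL, and neither line's groups overlapped. The siFASRL mean was 260% of siNC in HepG2 (8.22 ± 0.452 against 3.16 ± 0.044) and 24.1% in LM3 (2.32 ± 0.164 against 9.61 ± 0.636). The log2 differences were 1.15 (SE 0.06) and -1.68 (SE 0.06), and at such low values the added 1 makes them smaller than the log2 of the plain ratio.

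The region before the start of VIM and of NES is shown because these genes carry the contrast between shared and opposite movement. Promoter entries of RefSeq on GRCh38.p14 matched 5 of the 9 members (VIM, NES, LMNA, LMNB1 and LMNB2) and gave 8 entries, while KRT7, KRT80, KRT18 and KRT19 had none. Each line below gives the 250 bases before the start, 5′ to 3′ on the gene's strand, for VIM at chr10:17227991-17228240 (plus strand) and for NES at chr1:156677408-156677657 (minus strand), with capitals marking GGGCGG or its complement.
VIM: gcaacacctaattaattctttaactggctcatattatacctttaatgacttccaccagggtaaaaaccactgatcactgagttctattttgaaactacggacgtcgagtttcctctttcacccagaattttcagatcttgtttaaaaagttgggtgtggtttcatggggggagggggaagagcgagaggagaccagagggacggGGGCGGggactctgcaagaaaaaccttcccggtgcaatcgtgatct
NES: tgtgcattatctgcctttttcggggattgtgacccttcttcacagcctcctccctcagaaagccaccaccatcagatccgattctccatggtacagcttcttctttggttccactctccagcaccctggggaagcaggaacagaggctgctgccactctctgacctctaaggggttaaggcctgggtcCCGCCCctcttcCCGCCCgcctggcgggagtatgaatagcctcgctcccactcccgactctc
On both strands a search was made for GGGCGG (the GC box), for TATAAA (the TATA box), for CCAAT (the CCAAT box), for TGANTCA (the AP-1 motif) and for CACGTG (an E-box). VIM held GGGCGG at 1 place, 46 to 41 bases before the start, and NES at 2 places, 62 to 57 and 50 to 45 bases before it, and neither window held any of the other 4 motifs. Among the 250-base windows of all 35116 promoter entries, 42.6% held GGGCGG, 10.7% TATAAA, 32.0% CCAAT, 6.57% TGANTCA and 6.34% CACGTG. G and C made up 46.0% of the VIM window and 58.0% of the NES window, against a median of 58.0% over all entries. A match is a run of letters and not a shown site.

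**Figure D1:**
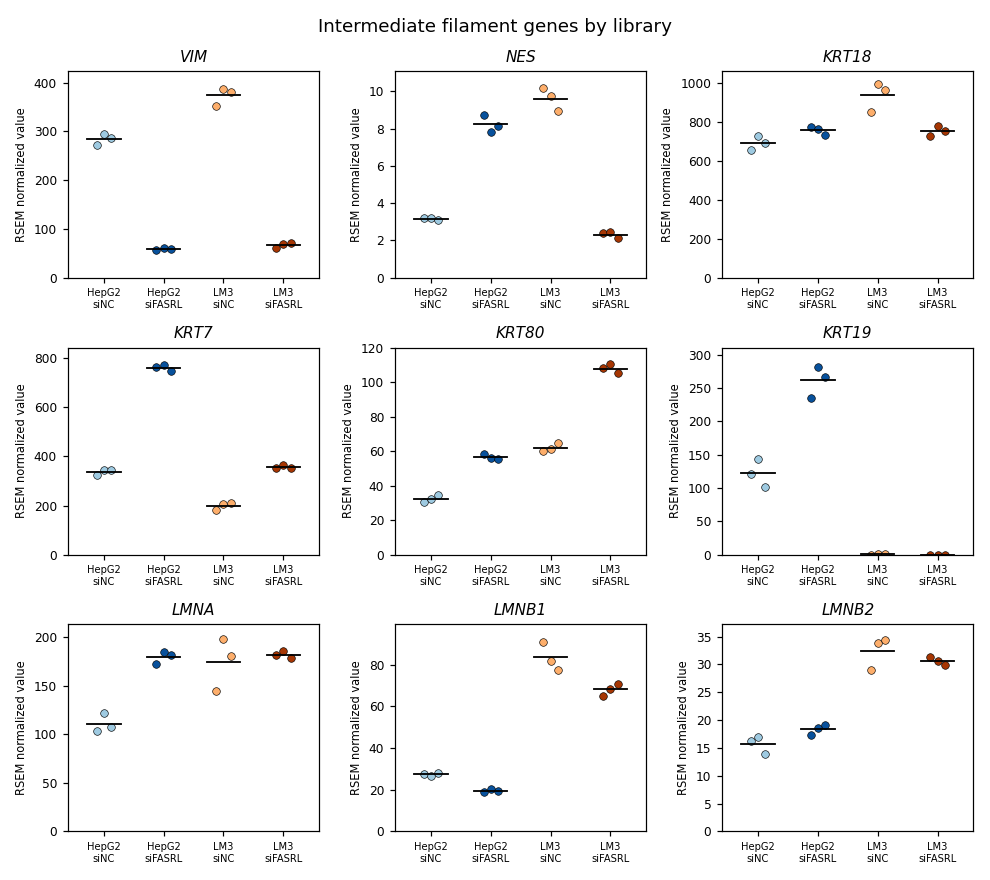
RSEM normalized value (vertical axis, linear and from 0) of the 9 listed intermediate filament genes in each library, grouped by line and siRNA; each point is a library and the bar is the mean of 3. VIM lies between 57.8 and 72.1 in the siFASRL libraries of both lines, while NES is higher with siFASRL in HepG2 and lower in LM3.

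KRT18 (gene ID 3875, chr12:52948855-52952906), the type I keratin of simple epithelia and partner of keratin 8, was the most abundant member in every group except HepG2 siFASRL. It had 658, 732 and 694 in HepG2 siNC and 776, 767 and 734 in HepG2 siFASRL, and 855, 998 and 969 in LM3 siNC and 728, 783 and 755 in LM3 siFASRL. Its changes were small beside those of VIM: the log2 difference was 0.13 (SE 0.06) in HepG2, which turned to -0.19 under quantile normalization, and -0.31 (SE 0.07) in LM3. Its size depended on the scaling, with 0.25 in HepG2 after centring on the sparse range and -0.19 in LM3 under median-of-ratios scaling. KRT18 overlaps KRT8 on the other strand and has 68 pseudogenes named for it in the RefSeq table, so its values are uncertain where reads were shared.

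KRT7 (gene ID 3855, chr12:52233243-52255853), a type II keratin of ducts and glands, was higher with siFASRL in both lines. It had 323, 345 and 346 in HepG2 siNC and 764, 774 and 746 in HepG2 siFASRL. In LM3 it had 183, 207 and 209.9 in siNC and 353, 364.5 and 354 in siFASRL. The groups were apart in both lines, at 2.25 times the siNC mean in HepG2 and 1.79 times in LM3, with log2 differences of 1.17 (SE 0.06) and 0.84 (SE 0.06). Across the scalings tried the difference lay between 0.94 and 1.29 in HepG2 and 0.71 and 0.96 in LM3. KRT86, another type II keratin gene, overlaps KRT7 on the same strand in GENCODE v29 and KRT7-AS on the other, so reads may be shared.

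KRT80 (gene ID 144501, chr12:52168996-52192014), a type II keratin found in many epithelia, moved by almost the same amount in the lines. Its values were 30.8, 32.1 and 34.4 in HepG2 siNC and 58.3, 56.0 and 55.3 in HepG2 siFASRL, and 60.4, 61.1 and 64.9 in LM3 siNC and 108, 111 and 105 in LM3 siFASRL. The mean with siFASRL was 1.74 times that with siNC in each line, and the log2 differences were 0.78 (SE 0.06) and 0.79 (SE 0.05). KRT80 lies 41.2 kb from KRT7 in the type II keratin cluster of chromosome 12, at whose end KRT18 lies 693.0 kb beyond KRT7.

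KRT19 (gene ID 3880, chr17:41523617-41528308), a type I keratin of bile ducts and progenitor cells, was a gene of HepG2 in these data. It had 121, 143 and 102 in HepG2 siNC and 235, 282 and 266 in HepG2 siFASRL, 2.14 times as much, with a log2 difference of 1.10 (SE 0.12). In LM3 it was at 0.09, 0.48 and 0.51 in siNC and 0.06, 0.03 and 0.03 in siFASRL. It passed the filter on low values through HepG2 and was left out of the LM3 fit. The LM3 siNC replicates 2 and 3, where it was highest in that line, were also those with the most albumin (0.62 and 0.40) and SERPINA1 (1.73 and 1.26), and the part of these traces was not tested. The RefSeq table names 5 pseudogenes for it.

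The lamins moved less than VIM and did not move together. LMNA (gene ID 4000, chr1:156082573-156140081), which codes for the A-type lamins A and C, had 103, 122 and 108 in HepG2 siNC and 172, 184 and 182 in HepG2 siFASRL, so that the groups were apart and the log2 difference was 0.69 (SE 0.07). In LM3 the siNC libraries, at 144, 198 and 181, enclosed the siFASRL libraries, at 182, 185 and 178, and the log2 difference of 0.07 (SE 0.11) became -0.06 under quantile normalization or without LM3 siNC replicate 1. No direction can be given for LMNA in LM3.

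LMNB1 (gene ID 4001, chr5:126776623-126837020), a B-type lamin whose level is high in dividing cells, was lower with siFASRL in both lines. Its values were 27.6, 26.5 and 28.1 in HepG2 siNC and 19.1, 20.2 and 19.6 in HepG2 siFASRL, and 91.0, 81.8 and 77.6 in LM3 siNC and 65.1, 68.5 and 70.8 in LM3 siFASRL. The groups were apart in both, at 71.6% and 81.6% of siNC and with log2 differences of -0.46 (SE 0.05) and -0.29 (SE 0.07), the latter -0.17 under median-of-ratios scaling. LMNB2 (gene ID 84823, chr19:2428166-2456959), the other B-type lamin, had 16.2, 16.99 and 13.9 in HepG2 siNC and 17.4, 18.6 and 19.0 in HepG2 siFASRL, a log2 difference of 0.22 (SE 0.08). In LM3 its groups overlapped, with 29.04, 33.9 and 34.4 in siNC and 31.4, 30.6 and 29.9 in siFASRL, and the log2 difference of -0.08 (SE 0.07) became 0.04 under median-of-ratios scaling. LMNA and NES lie 528.7 kb apart on chromosome 1, but LMNA did not share the opposite movement of NES.

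**Figure D2:**
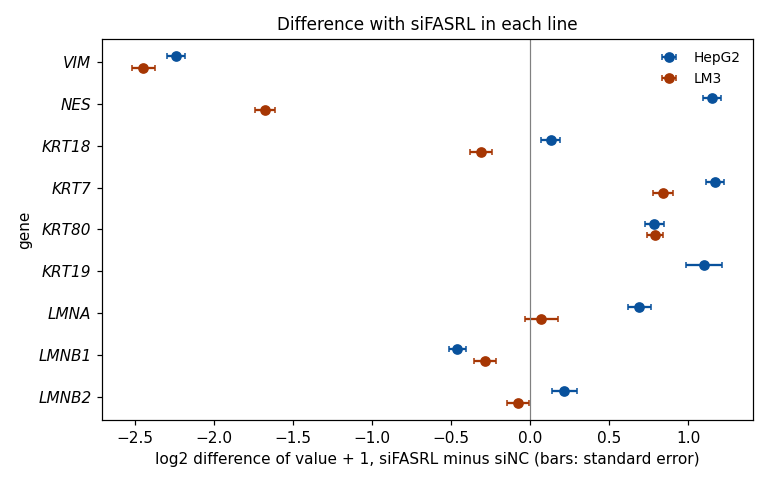
Difference between siFASRL and siNC on the log2(value + 1) scale (horizontal axis) for each member in HepG2 and LM3, with bars for the standard error; KRT19 has no LM3 point because it was under the filter there. VIM lies near -2.24 and -2.45, NES at 1.15 in HepG2 and -1.68 in LM3, and KRT7 and KRT80 lie above 0 in both lines.

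The order of the members changed with siFASRL. In HepG2 siNC it ran KRT18, KRT7, VIM, KRT19, LMNA, KRT80, LMNB1, LMNB2 and NES, and of these neighbours KRT19 and LMNA overlapped. In HepG2 siFASRL KRT7 and KRT18 overlapped at the top (746 to 774 and 734 to 776), followed by KRT19 and LMNA, and VIM overlapped with KRT80. In LM3 siNC VIM stood next to KRT18, ahead of KRT7 and LMNA, which overlapped, whereas in LM3 siFASRL it overlapped with LMNB1 (61.4 to 72.1 and 65.1 to 70.8) behind KRT18, KRT7, LMNA and KRT80. With siFASRL VIM thus lay at the level of KRT80 in HepG2 and under KRT80, beside a lamin, in LM3.

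Shares within a library do not depend on its scaling and show the same shift. VIM made up 17.5%, 17.1% and 17.7% of the summed value of the 9 members in HepG2 siNC and 2.74%, 2.83% and 2.82% in HepG2 siFASRL. In LM3 it made up 20.4%, 19.6% and 19.8% with siNC and 4.01%, 4.33% and 4.60% with siFASRL. The 4 listed keratins took up 72.9% ± 0.0932 and 64.1% ± 0.443 (SD, n = 3) under siNC in HepG2 and LM3, and 86.6% ± 0.357 and 77.7% ± 0.225 with siFASRL. The ratio of KRT7 to KRT18 was 0.491, 0.471 and 0.498 in HepG2 siNC and 0.984, 1.01 and 1.02 in HepG2 siFASRL. In LM3 it was 0.214, 0.207 and 0.217 with siNC and 0.485, 0.465 and 0.469 with siFASRL. The LM3 libraries with siFASRL thus had nearly the ratio of the HepG2 libraries with siNC, from a mean of 0.473 against 0.487. B-type to A-type lamin, LMNB1 plus LMNB2 over LMNA, was 0.424, 0.356 and 0.391 in HepG2 siNC and 0.212, 0.210 and 0.213 in HepG2 siFASRL, and 0.833, 0.584 and 0.620 in LM3 siNC and 0.531, 0.535 and 0.565 in LM3 siFASRL. LM3 siNC replicate 1 stood apart in that ratio, having the lowest LMNA value and the highest LMNB1 value of its group.

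**Figure D3:**
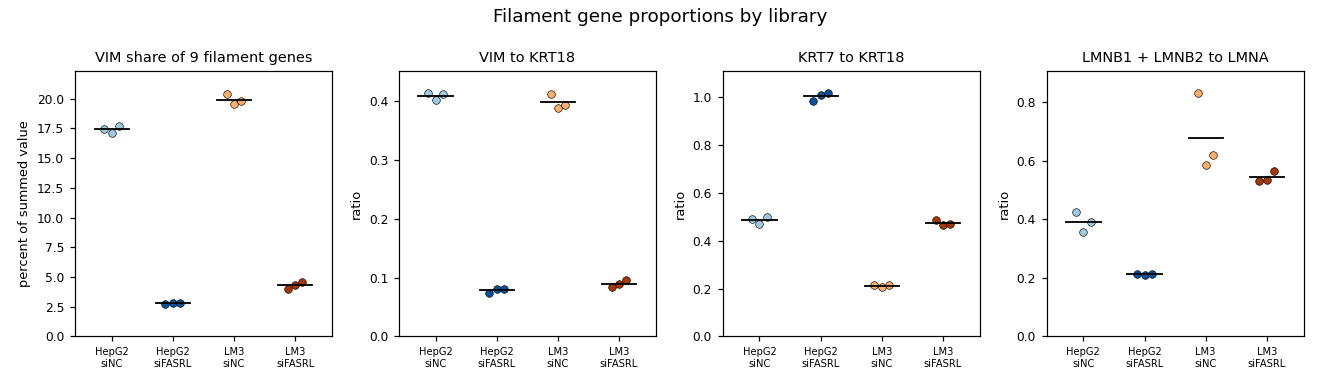
Share of VIM in the summed value of the 9 members (percent) and the ratios of VIM to KRT18, KRT7 to KRT18 and B-type to A-type lamins (vertical axes, linear and from 0) in each library, with bars for the mean of 3. The VIM share lies between 17.1% and 20.4% in the siNC libraries and between 2.74% and 4.60% in the siFASRL libraries.

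Between the lines under siNC, a comparison that did not choose the members although the same siNC libraries enter the knockdown comparisons, the B-type lamins were higher in LM3. Of the 7 members other than VIM and NES, 2 were called higher in LM3 (LMNB1 and LMNB2) and 1 lower (KRT19), where a call is a difference of at least 1 on the log2 scale with a limma adjusted p under 0.05. Over all 8176 genes tested, 7.74% were called higher and 15.6% lower. Quantile normalization gave 921 higher and 972 lower calls in place of 633 and 1278. Leaving out HepG2 siNC replicate 1, 2 or 3 gave 714, 702 or 719 lower calls, because genes of HepG2 alone then reached too few libraries to be tested, and no member was called lower by limma. LMNB1 averaged 83.4 ± 6.85 in LM3 and 27.4 ± 0.795 in HepG2 (SD, n = 3), a log2 difference of 1.57 (SE 0.07, limma adjusted p = 1.57e-07), with all LM3 libraries above all HepG2 libraries. NES was 3.04 times as high in LM3, a difference of 1.35 (SE 0.06) given without a test, since its choice used these siNC values. LMNB2, at 32.5 ± 2.96 against 15.7 ± 1.61, lay at the threshold with 1.003 (SE 0.09, limma adjusted p = 1.47e-05). It came under the threshold of 1 with median-of-ratios scaling (0.999), under quantile normalization, and without HepG2 siNC replicate 3 (0.92) or LM3 siNC replicate 2 (0.97) or 3 (0.96). KRT19 had to differ, since it passed the filter through HepG2 alone, and its difference was -6.50 (SE 0.15).

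The other members differed by less between the lines. With adjusted p alone, 5 of the 7 members were higher and 2 lower (KRT7 and KRT19) in LM3, beside 40.4% higher and 40.6% lower of all genes tested, so that a low p was common in this comparison. KRT80 was higher by 0.92 (SE 0.06, limma adjusted p = 2e-06), LMNA by 0.64 (SE 0.12, limma adjusted p = 0.00116) and KRT18 by 0.43 (SE 0.08, limma adjusted p = 0.000733). VIM, not tested for the reason given for NES, had a difference of 0.39 (SE 0.06). KRT7 was lower in LM3, with a difference of -0.76 (SE 0.07, limma adjusted p = 1.37e-05). VIM and KRT18 stood in a similar proportion, as the ratio of VIM to KRT18 was 0.413, 0.402 and 0.412 in HepG2 siNC and 0.412, 0.388 and 0.394 in LM3 siNC, with overlapping ranges. The ratio of type II (KRT7 and KRT80) to type I (KRT18 and KRT19) keratins, which lacks KRT8, averaged 0.279 ± 0.0091 in LM3 siNC and 0.454 ± 0.0233 in HepG2 siNC, and B-type to A-type lamin averaged 0.679 ± 0.134 and 0.390 ± 0.034. Each gave p = 0.1 in a two-sided exact permutation test of the 3 LM3 against the 3 HepG2 libraries (0.1 after Benjamini-Hochberg adjustment over the 2 ratios), which is the smallest p that 3 against 3 allows.

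The other intermediate filament genes were read from the knockdown comparisons. Of 60 such genes 12 were listed and 8 passed the filter in HepG2, where 3 were called higher and 0 lower, beside 3.61% and 6.79% of all 8144 genes tested. By adjusted p alone 7 were higher and 1 lower, against 44.8% and 44.3% of all genes, and the median difference was 0.52, against 0.10 over all genes tested. KRT17, a type I keratin of basal and stressed epithelium, was the most abundant listed filament gene in HepG2 siFASRL. It had 589, 639 and 546 in HepG2 siNC and 1866, 1918 and 1762 in HepG2 siFASRL, and it rose by 1.65 (SE 0.07, limma adjusted p = 7.67e-08). KRT17 therefore had 2.43 times the value of KRT18 with siFASRL, compared with 0.852 times in siNC. KRT23 rose from 18.6, 16.1 and 16.8 to 40.7, 39.1 and 40.6, and KRT37, a hair keratin, from 0.49, 1.15 and 0.61 to 7.46, 9.25 and 8.66 (limma adjusted p = 2.63e-07 and 2.13e-07). KRT37 passed the filter through the siFASRL libraries, so that its call is no support. KRT10, a keratin of suprabasal epidermis and the next of the list by its mean over the 12 libraries, had a difference of 0.39 (limma adjusted p = 0.000426). SYNM, which codes for the vimentin and desmin partner synemin, was the gene of lower value among those tested, at -0.36 (limma adjusted p = 0.000224). Without the filter 3 were lower by adjusted p, and with a value of 5 required 4 were higher. DES and PRPH, the type III relatives desmin and peripherin, were under the filter in both lines and are named after their values were seen. In HepG2 they were at most 0.69 and at 20.4% and 27.5% of siNC, and in LM3 at most 1.51 and at 11.1% and 13.2%, with groups apart and no test. Centring the HepG2 effects on their sparse range turned the calls over all genes from 294 higher and 553 lower to 423 and 406, and quantile normalization to 388 and 429. The centring moved the median of all genes by 0.12 by construction.

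In LM3 5 of these 12 genes passed the filter and none was called, beside 1.42% called higher and 6.2% lower of 7483 genes tested. By limma's adjusted p 2 were higher (KRT17 and KRT86) and 2 lower (KRT16 and SYNM), against 33.9% and 43.5% of all genes, and the unadjusted p under 0.05 held for the same 4. KRT86 and KRT16 passed the filter through the group where each was higher, so they had to differ. KRT86 also overlaps KRT7. The count of higher genes was 1 on leaving out LM3 siFASRL replicate 1, 2 or 3, and that of lower genes was 1 on leaving out LM3 siFASRL replicate 2 or LM3 siNC replicate 1, 2 or 3 and under median-of-ratios scaling. Without the filter 4 were lower, and with a value of 5 required 1 was higher and 1 lower. KRT17 had 170, 188 and 169 in LM3 siNC and 275, 320 and 304 in LM3 siFASRL, a difference of 0.77 (SE 0.07, limma adjusted p = 2.02e-05). KRT17 and KRT7 thus were higher with siFASRL in both lines, while KRT23 (at most 0.10) and KRT37 (0 in every library) were not present in LM3. Calls over all LM3 genes went from 106 higher and 464 lower to 163 and 260 under quantile normalization and to 157 and 348 under median-of-ratios scaling, which moved the median of all genes by 0.10 and 0.11. The effects of the lines differed by at least 1 with an adjusted p under 0.05 for KRT16, KRT23 and KRT37, all lower in LM3, beside 2.31% higher and 2.53% lower of 8285 genes tested. KRT23 and KRT37 passed the filter through HepG2, so their difference carries the HepG2 effect with its sign turned. Centring the HepG2 effects moved the calls on this difference over all genes from 191 higher and 210 lower to 152 and 282. KRT16, named after its values were seen, had between 1.67 and 1.87 in HepG2 siNC and between 2.54 and 3.28 in HepG2 siFASRL, but 2.03, 2.16 and 2.55 in LM3 siNC and 0.54, 0.66 and 0.77 in LM3 siFASRL, so it moved as NES did (difference of effects -1.47, SE 0.11, limma adjusted p = 3.81e-07). KRT17 has 8 pseudogenes named for it in the RefSeq table, and keratins 16 and 17 are close in sequence, so reads may have been split between them.

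Genes that tie filaments to desmosomes and to other filaments gave 1 call in each line. Of 23 linker and desmosome genes 11 were listed and 10 tested in each line. In HepG2 1 was called higher and 0 lower, beside 3.61% and 6.79% of all genes, and in LM3 0 higher and 1 lower, beside 1.42% and 6.2%. By limma's adjusted p alone 6 were higher and 1 lower in HepG2 (44.8% and 44.3% of all genes), with a median of 0.31 against 0.10. In LM3 3 were higher and 4 lower (33.9% and 43.5% of all genes), with a median of -0.01 against -0.06, and median-of-ratios scaling made these counts 5 and 2. PERP, a desmosome protein, rose from 39.1, 33.9 and 38.1 to 98.9, 96.4 and 102 in HepG2 (1.40, SE 0.07, limma adjusted p = 1.32e-07) and was higher by 0.80 in LM3 (SE 0.08, limma adjusted p = 2e-05). PPL, the filament linker periplakin, fell from 11.2, 9.85 and 9.46 to 4.05, 4.27 and 3.85 in LM3, a difference of -1.14 (SE 0.07, limma adjusted p = 2e-06) that quantile normalization reduced to -0.92. In HepG2 it went from a mean of 21.9 ± 0.932 to 12.3 ± 1.308, a difference of -0.79 (SE 0.08, limma adjusted p = 8.6e-06). JUP, which codes for plakoglobin and was the most abundant of the list, had a difference of 0.58 (SE 0.06) in HepG2 and 0.22 (SE 0.07) in LM3 (limma adjusted p = 9.48e-06 and 0.0214). No gene of this list was called for a difference between the lines' effects by limma, although 8 of the 10 had an unadjusted p under 0.05. By adjusted p alone 0 were higher and 7 lower, beside 19.5% and 27.2% of all genes, and the median was -0.54 against -0.05.

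Partners of the nuclear lamina and lamin processing enzymes were tested for 15 of 24 genes in HepG2 and 14 in LM3, and limma called no gene in either line, beside 3.61% higher and 6.79% lower of all genes in HepG2 and 1.42% and 6.2% in LM3, while 12 had an unadjusted p under 0.05 in each. By adjusted p alone 3 were higher and 9 lower in HepG2, beside 44.8% and 44.3% of all genes, with a median of -0.37 against 0.10, and centring on the sparse range made 5 higher. In LM3 4 were higher and 8 lower, beside 33.9% and 43.5%, with a median of -0.19 against -0.06. EMD, which codes for the inner membrane protein emerin and was the most abundant, had 52.5, 53.5 and 55.1 in HepG2 siNC and 68.2, 74.5 and 70.5 in HepG2 siFASRL (0.40, SE 0.06, limma adjusted p = 0.000116), and a difference of 0.51 in LM3 (SE 0.06, limma adjusted p = 8.49e-05). ANKLE2, an inner membrane protein needed for rebuilding the nuclear envelope, was also higher, by 0.48 (SE 0.05) in HepG2 and 0.49 (SE 0.05) in LM3 (limma adjusted p = 2.08e-05 and 2.54e-05). ZMPSTE24, the protease that matures lamin A, was lower by adjusted p in both lines, at -0.82 (SE 0.07, limma adjusted p = 2.23e-06) and -0.51 (SE 0.06, limma adjusted p = 7.71e-05), and was named after its values were seen. LMNA was higher in HepG2 while the enzyme that trims its product was lower there.

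Junction and matrix genes of epithelial and mesenchymal cells, among which VIM is often counted, differed by kind. Of 44 genes 29 were listed. In HepG2 28 were tested, with 1 called higher and 5 lower, beside 3.61% and 6.79% of all genes, and 14 higher and 14 lower by limma's adjusted p alone (median -0.04, all genes 0.10). The 13 epithelial genes had 2 higher and 11 lower (median -0.92), and the 15 mesenchymal genes 12 higher and 3 lower (median 0.40), beside 44.8% higher and 44.3% lower of all genes. In LM3 24 were tested, with 1 called higher and 5 lower, beside 1.42% and 6.2% of all genes, and 9 higher and 12 lower by adjusted p alone (median -0.16, all genes -0.06). There the 11 epithelial genes had 1 higher and 9 lower (median -0.67), and the 13 mesenchymal genes 8 higher and 3 lower (median 0.19), beside 33.9% and 43.5% of all genes. Under every scaling tried, the median stayed negative for the epithelial and positive for the mesenchymal genes in each line. VIM, lower with siFASRL in both lines, lay on the side of the fewer mesenchymal genes. S100A4, a calcium-binding protein used as a mesenchymal mark, fell as VIM was lower: 485, 543 and 509 in HepG2 siNC against 146, 190.1 and 184 in siFASRL, and 512, 654 and 604 in LM3 siNC against 187, 219 and 219 (differences of -1.57, SE 0.10, and -1.49, SE 0.10, limma adjusted p = 5.61e-07 and 3.34e-06). The mesenchymal gene TAGLN, an actin-binding protein, went the other way in HepG2, from a mean of 5.28 ± 0.296 to 12.4 ± 0.412 (1.09, SE 0.06, limma adjusted p = 2.37e-07).

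Epithelial junction genes were among the lower ones. CDH1, which codes for E-cadherin, fell from 8.23, 7.63 and 7.21 to 1.84, 1.97 and 2.16 in HepG2 (-1.54, SE 0.07, limma adjusted p = 7.97e-08) and was under 1 in every LM3 library. TJP3, a tight junction scaffold, fell in both lines, with differences of -1.43 (SE 0.08) in HepG2 and -1.52 (SE 0.10) in LM3 (limma adjusted p = 3.13e-07 and 3.09e-06). In HepG2 it passed the filter through siNC alone and had to differ. CLDN7, a tight junction gene, fell in both lines, with differences of -0.99 (SE 0.07), close to the threshold and past it under 4 alternatives, in HepG2 and -1.495 (SE 0.07) in LM3 (limma adjusted p = 7.88e-07 and 8.16e-07). F11R, another such gene, had -0.46 (SE 0.06) in HepG2 and -1.10 (SE 0.06) in LM3 (limma adjusted p = 3.17e-05 and 1.59e-06). In LM3 it passed the filter through siNC alone and had to differ, and it had -0.64 under quantile normalization. FN1, fibronectin, was abundant in HepG2 at 603, 588 and 537 in siNC and 739, 685 and 690.4 in siFASRL (0.29, SE 0.06, limma adjusted p = 0.0018), a direction that quantile normalization turned to -0.02, and was at most 1.38 in LM3. The difference between the lines' effects was called by limma among 28 tested for CDH1 and SPARC (higher in LM3) and for CLDN4 (lower in LM3), beside 2.31% and 2.53% of all genes. Of these SPARC and CLDN4 were named after their values were seen. CDH1 and SPARC were under 1 in every LM3 library, so their difference carries the HepG2 effect with its sign turned. Genes of keratins 7, 17 and 80 were higher in HepG2 beside lower values of CDH1 and TJP3 in the same libraries.

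Actin and tubulin genes, the subunits of the other filament systems, were higher with siFASRL in HepG2 and mixed in LM3. Of 23 genes 18 were listed. In HepG2 15 were tested, 14 were higher and 1 lower by limma's adjusted p, beside 44.8% and 44.3% of all genes (median 0.66 against 0.10), and 1 was called in each direction, beside 3.61% and 6.79%. Without the filter 3 were lower, and ACTA1 and TUBB4A, under the filter and named after their values were seen, were at 24.2% and 38.65% of siNC with groups apart and no test. In LM3 11 were tested, 4 were higher and 4 lower by adjusted p, beside 33.9% and 43.5% (median -0.09 against -0.06), with 1 higher under quantile normalization, and, by limma with its threshold of 1, none was called, while 8 had an unadjusted p under 0.05. TUBA4A, an alpha-tubulin, rose from 69.9, 60.5 and 67.7 to 209.99, 175 and 179 in HepG2 (1.49, SE 0.09, limma adjusted p = 3.2e-07). TUBB1, a beta-tubulin of blood platelets, fell from 5.17, 4.52 and 3.93 to 1.04, 0.82 and 1.12 (-1.47, SE 0.09, limma adjusted p = 5.01e-07). ACTB, the most abundant at 1944, 2020.3 and 1849 in HepG2 siNC and 3129, 3230.3 and 3214 in siFASRL, differed by 0.72 (SE 0.06) in HepG2 and 0.26 (SE 0.06) in LM3 (limma adjusted p = 2.19e-06 and 0.00494). ACTG1 differed by 0.32 (SE 0.09) and 0.40 (SE 0.12) (limma adjusted p = 0.00501 and 0.0109). For the difference between the lines' effects 15 genes were tested, of which 4 tubulin genes were called lower in LM3 (TUBA1A, TUBB2A, TUBB3 and TUBB6) and 1 higher (TUBB1), beside 2.53% and 2.31% of all genes, and the 4 were named after their values were seen. TUBB1 was under 1 in every LM3 library, so its difference carries the HepG2 effect with its sign turned. Tubulin genes are close in sequence, so their values are uncertain where reads were split.

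**Figure D4:**
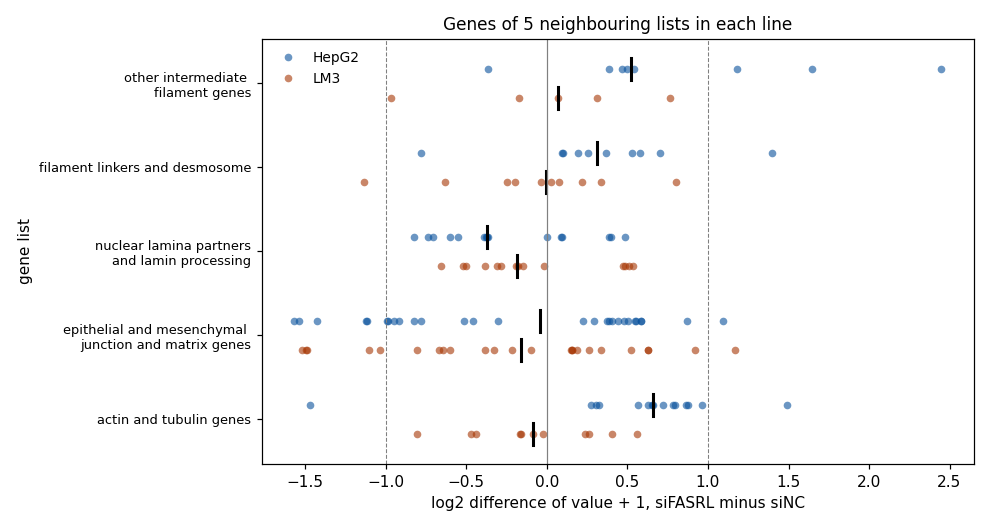
Difference between siFASRL and siNC on the log2(value + 1) scale (horizontal axis) for each tested gene of 5 lists in HepG2 and LM3; each point is a gene, black bars are medians and dashed lines mark 1 and -1. Actin and tubulin genes lie mostly above 0 in HepG2 (median 0.66) and around 0 in LM3 (median -0.09).

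The genes most like VIM and NES across the libraries were sought among 6319 listed genes with a mean of at least 5, by Pearson's r of log2(value + 1) over the 12 libraries, which fall into the 4 groups and share their controls. For VIM they were RHPN2 (r = 0.9953), DHTKD1 (0.9936), KCTD3 (0.9934) and HIBADH (0.9931), all lower with siFASRL in both lines. RHPN2 averaged 16.6 in HepG2 siNC and 6.84 in HepG2 siFASRL, and 18.0 and 7.60 in LM3. For NES the closest genes were less alike: SPTAN1 (r = 0.9608), HSPB1 (0.9559), F2R (0.9454) and DGCR2 (0.9445). HSPB1, which codes for the small heat shock protein HSP27, averaged 334 in HepG2 siNC and 423 in HepG2 siFASRL but 494 in LM3 siNC and 269.9 in LM3 siFASRL, and so moved in opposite directions as NES did, over a narrower range. VIM and NES were chosen for their movement with siFASRL, and these genes were picked for likeness to them. Their directions therefore follow from the choice and are no support.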

How the data were processed

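RNA-seq of 12 libraries was used: HepG2 and LM3 cells with siFASRL or siNC, 3 replicates each. Per the labels and the paper's methods, the authors filtered reads with SOAPnuke, mapped them with HISAT2 and Bowtie2 and computed gene levels with RSEM. The deposited values are normalized for gene length and depth, and whether they are FPKM or TPM is not stated. The labels name hg19, while the chromosome accessions in the files are those of GRCh38. Read depth is not given, so the precision of low values is unknown. Of the columns of values 6 repeated others and were not used, and 17 gene symbols turned into dates were restored.

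Since the values are not counts, limma (3.58.1, R 4.3.3) was run on log2(value + 1) in each comparison over genes that reached 1 in 3 or more libraries of the fit, with Benjamini-Hochberg adjustment over all of them. For a call the difference had to reach 1 and the adjusted p to be below 0.05. Tables and figures were made with Python 3.11.15, pandas 2.3.3, scipy 1.17.1 and matplotlib 3.10.9. The members and gene lists were chosen with earlier results of these data known. Genes named were the listed members, from each other list up to 4 called genes of lowest p in each knockdown comparison and the 2 of highest mean value, the 4 genes most like VIM and the 4 most like NES, and for marker lists the most abundant gene over the 12 libraries and those at 0. ALB, ANXA4, CD68, CD79A, RGS5, SYNM, KRT86 and other exceptions were named after their values were seen. Alternatives changed the pseudocount, filter, scaling, fit and libraries.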

Additional observations from a re-analysis of the deposited data

Results flagged for a closer look

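The effect of siFASRL in LM3 minus that in HepG2 differed from 0 by at least 1 on the log2 scale, with a limma adjusted p under 0.05 in the interaction test over 12 libraries, for 11 genes of the 5 lists other than the members and cell type markers, beside 2.31% called higher and 2.53% lower of all 8285 genes tested. Among the 8 other intermediate filament genes tested it was -1.47 for KRT16 (limma adjusted p = 3.81e-07), -1.26 for KRT23 (8.38e-08) and -2.45 for KRT37 (7.11e-08). Among the 28 junction and matrix genes tested it was 1.47 for CDH1 (5.03e-08), 1.06 for SPARC (5.06e-07) and -1.12 for CLDN4 (9.1e-07). Among the 15 actin and tubulin genes tested it was -1.47 for TUBA1A (2.05e-07), 1.43 for TUBB1 (1.02e-06), -1.345 for TUBB2A (1.83e-05), -1.22 for TUBB3 (4.03e-05) and -1.05 for TUBB6 (5.67e-06).

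Of the marker lists, 4 of 13 hepatocyte, 1 of 6 cholangiocyte and 3 of 5 fibroblast and stellate cell markers tested were called higher in the same test, and 1 of these 5 and 1 of 4 leukocyte markers lower. Of the markers named in the report, those called higher were ALB (1.45, limma adjusted p = 1.63e-05), SPP1 (1.83, 1.09e-07) and RGS5 (2.45, 6.4e-10). Those called lower were COL1A1 (-1.10, 2.41e-06) and CD79A (-2.39, 4.31e-09).

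KRT23, KRT37, CDH1, SPARC and TUBB1, and of the markers called all but COL1A1 and RGS5, were under 1 in every LM3 library. They passed the filter through HepG2, so their difference carries the HepG2 effect with its sign turned and is no support for a difference in LM3. KRT37 and CD79A, the leukocyte marker, passed it through the HepG2 siFASRL libraries, so that their call was fixed by the filter. RGS5 reached 1 in LM3 with siFASRL only. KRT16, CLDN4, TUBA1A, TUBB2A and TUBB3 had a lower value in LM3 and a higher value in HepG2 with siFASRL in the group means, and TUBB6 overlapped between groups in LM3. SPARC fell under the threshold with a pseudocount of 0.1 (0.86) and with HepG2 effects centred on their sparse range (0.94), CLDN4 under quantile normalization (-0.996) and TUBB6 under median-of-ratios scaling (-0.975) and without LM3 siNC replicate 2 or 3.

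Among the members, every library of HepG2 with siFASRL lay above, and every library of LM3 with siFASRL below, the siNC libraries of its line for NES (difference of effects -2.825), KRT18 (-0.44) and KRT19 (-1.47, at trace values in LM3). KRT19 passed the filter through HepG2, so its difference carries mostly the HepG2 effect (1.10) with its sign turned. Quantile normalization turned KRT18 in HepG2 to -0.19, with -0.51 in LM3, so that it was lower in both lines. For these 3 genes the difference was not tested, because members were chosen on the knockdown.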

How the results depend on the processing

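Most results were labelled unchanged: 1886 values of the alternatives were, while 71 values moved, 14 weakened, 4 became stronger and 5 reversed. A tested gene was unchanged if it kept its direction and its side of the threshold. A count was unchanged if it stayed within a fixed ratio of the main count. Untested differences of members and ratios were unchanged if they kept their sign and shifted by less than the largest SD of a group. With eBayes trend (132 results), a joint fit of 12 libraries (119) and the replicate block (132) all were labelled unchanged. Causes were not tested unless stated.

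With a pseudocount of 0.1, HepG2 had 957 genes called lower, 2 actin and tubulin genes called higher, 1 lamina partner and 8 junction and matrix genes called lower, and NES at 1.35. LM3 had 753 genes called lower, 2 junction and matrix genes called higher, 1 other filament gene called lower and NES at -2.01, and 380 genes were called lower in the difference of effects. Without a filter, 1 other filament gene was called lower in LM3, and with a value of at least 5 required, 0 actin and tubulin genes were called lower in HepG2 because fewer genes were tested.

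Quantile normalization gave 2 actin and tubulin genes called higher, VIM at -2.345 and NES at 1.36 in HepG2, and 163 genes called higher, 260 lower, 2 junction and matrix genes called higher, 0 linkers called lower and NES at -1.405 in LM3. It reversed KRT18 (-0.19) and FN1 (-0.016, limma adjusted p = 0.852) in HepG2 and LMNA (-0.057) in LM3. Median-of-ratios scaling gave 2 junction and matrix genes called higher and NES at -1.58 in LM3, and reversed LMNB2 there (0.038). Centring HepG2 effects on their sparse range gave 2 actin and tubulin genes called higher, VIM at -2.12 and NES at 1.27.

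Leaving out 1 library at a time gave between 702 and 1294 genes called lower in LM3 under siNC, the lowest where a HepG2 siNC library was left out and a gene of HepG2 alone could no longer reach 3 libraries, so that members called lower went from 1 to 0 (KRT19). It gave 1 to 2 actin and tubulin genes called higher in HepG2. In LM3 it gave 0 to 1 other filament genes called lower, 1 to 2 junction and matrix genes called higher and 3 to 5 lower, with 2 and 3 without LM3 siNC replicate 1. LMNA in LM3 ranged from -0.059 without LM3 siNC replicate 1 to 0.17 without LM3 siNC replicate 2. Where 2 libraries were left in a group, limma's pooled spread was assumed to hold for it.

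KRT7 to KRT18 alone, chosen after seeing the data, gave a log2 ratio between the lines of -1.195 (0.2125 in LM3 siNC against 0.487 in HepG2 siNC). It replaced the type II to type I keratin ratio, which averaged 0.279 in LM3 siNC and 0.454 in HepG2 siNC. The lines thus lay further apart without KRT80 and KRT19. KRT8 to KRT18 alone was not run, since KRT8 is not among the listed genes.

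The replicate block left 294 genes called higher and 553 lower in HepG2, and 106 and 464 in LM3. In this balanced design the block does not alter the differences themselves. These counts could change only through the p-value, so they say little about pairing. Deviations of same-numbered siFASRL and siNC libraries correlated at 0.319, 0.371 and -0.2 in HepG2 and at -0.08, 0.118 and -0.175 in LM3. Libraries of different numbers correlated between -0.46 and 0.297 in HepG2 and between -0.124 and 0.187 in LM3. Deviations from a mean of 3 depend on each other, so these values cannot decide whether the numbers pair the libraries. Depth is unknown, which limits what can be said of values near 0.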
